A study of Mus musculus with 12 samples.

Results

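Sarcomere and Z-disc structural genes encode the thick and thin filaments of striated muscle, the titin springs and M-band that hold the filaments in register, and the Z-disc that anchors them. The set held 37 named genes, and all 37 had at least 1 probe set with a single gene symbol among the 19937 genes measured. Where a gene had several such probe sets, the brightest on average represented it. Hearts came from 3 groups of mice, with 4 arrays each: mice with the IDH2 R140Q mutation, mice with the IDH2 R172K mutation, and control mice. All had a mixed C57BL/6, 129/sv and Balb/c background. The mutant mice received 2 mg of 4-hydroxytamoxifen for 3 days at 5 weeks of age, a drug commonly used to activate inducible Cre recombinase. What control mice received, the promoter that drives the mutant gene or a Cre, the sex of the animals and their age at dissection are details the sources used here do not give. A drug or Cre effect cannot be told apart from an effect of the mutation in a comparison with control. Nothing in the labels says that each array came from its own animal, and p-values therefore reflect only differences among samples, which may be technical.

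In heart muscle, myosin heads of the thick filament pull on actin of the thin filament when calcium binds troponin, and the myosin light chains and myosin-binding protein C tune that force. Tropomodulins and leiomodins set thin filament length at the free end, and nebulin family proteins lie along the filament or tie it to the Z-disc. The Z-disc also carries signalling and mechanosensing proteins, many of them altered in inherited cardiomyopathies. Mutant IDH2 is known to produce D-2-hydroxyglutarate, and the study asked about disease of the heart in these mice.

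Values are log2 of the deposited intensity, a measure of transcript level that was compared for 1 gene across arrays, not between genes. A gene counted as changed at a Benjamini-Hochberg adjusted p under 0.05, over all 19937 genes, in limma's two-sided moderated test on the 12 arrays, and every adjusted p below is of that kind. Group means are given ± SD with n = 4, and differences ± the standard error (SE) of the fit. Array medians were 74.8 to 78.0 intensity units. Cardiomyocyte markers were bright, with the atrial and ventricular myosin Myh6 between 12.8 and 13.4 and troponin I (Tnni3) between 13.0 and 13.6 on all arrays. Markers of lung were high on R140Q 4, and markers of atrium were highest on control 3 and R172K 3. Summed lung marker intensity was 5058 on R140Q 4, against 237 to 305 on the other 11, and summed atrial marker intensity was 31247 on control 3 and 22429 on R172K 3, the highest of the series. The atrial sum was also 15606, 11841 and 14785 on R172K 1, 2 and 4, against 7730, 6940 and 7000 on control 1, 2 and 4. Leaving the 3 arrays out therefore does not make R172K and control hearts alike in this sum. The sum is of linear intensity, so bright markers such as Nppa weigh most in it. On the arrays kept, Nppa was log2 12.98 to 13.35 in R172K hearts and 11.08 to 12.20 in control hearts. Nppa, Myl4 and Sln were higher on each kept R172K array than on each kept control array, whereas Stard10 and Kcnj3 were lower. The other atrial markers overlapped. The part of lung and atrial markers in the results below was not tested beyond leaving the 3 arrays out. These are bulk samples, in which fewer cells of a type and less RNA per cell cannot be told apart.

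In R172K hearts 13 of the 37 genes changed, 9 lower and 4 higher. Among all genes 13.0% were called in that comparison, 6.78% lower and 6.23% higher. In R140Q hearts 3 of 37 changed, 2 lower and 1 higher, against a background of 2.20% (1.12% lower, 1.08% higher). Between R172K and R140Q hearts 1 of 37 differed, against 1.48% of all genes (0.998% lower). All members except Mybpc1 and Myoz1 were brighter than the median gene, and brighter genes were called more often. In a fit of only the 9968 genes above that median, 11 members were lower and 5 higher in R172K hearts, with 27.8% of these genes called in either direction. For R140Q the counts were 3 lower and 1 higher (5.69% called), and between the mutants 1 lower and 0 higher (4.5%). The median difference of the 37 genes was -0.07 for R172K and -0.07 for R140Q, while that of all genes was -0.0033 for R172K and 0.003 for R140Q. Changed members went in both directions in each mutant, and the 2 comparisons share their control arrays. The lower genes in R172K hearts were Myl2, Mylk3, Mybpc2, Nebl, Lmod3, Ttn, Cmya5, Myoz2 and Fhl2, and the higher ones were Flnc, Pdlim1, Pdlim5 and Smpx. In R140Q hearts Tmod4 and Nebl fell and Flnc rose.

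These counts moved with the arrays in the fit, and so did the share of all genes called. Each share in this paragraph is of calls in either direction, so it is not the background for a count in 1 direction alone. Without control 1, 2, 3 or 4 the R172K count of higher members was 2, 2, 2 and 1, while 7.82%, 7.42%, 9.86% and 9.14% of all genes were called. Without R172K 1 or R172K 2 it was 1 each time, with 6.66% and 8.75% of all genes. The R172K count of lower members stayed between 6 and 11. The R140Q count of lower members was 0 without control 1, 2 or 3 (0.502%, 0.772% and 0.803% of all genes called) and without R140Q 3 (0.552%). It was 1 without control 4 (1.52%) or R140Q 1 (0.707%), 4 without R172K 3 (5.09%) and 6 without R172K 4 (4.93%). The R140Q count of higher members was 0 without any 1 control array or R140Q 1, 2 or 3 (2.22% of all genes without R140Q 2), and 2 without R172K 3. Without R140Q 4, control 3 and R172K 3 together, the R172K counts were 5 higher and 9 lower (17.3% of all genes), and the R140Q counts were 2 higher and 1 lower (1.78%). For R172K against R140Q, the counts without R172K 3 were 2 higher and 2 lower (7.91% of all genes). The count of lower members was 0 without R140Q 4 or R172K 1, where 0.00502% of all genes were called each time. Fitted on only the 8 arrays of the 2 groups, the R172K calls of Mylk3, Myoz2, Fhl2, Pdlim1 and Pdlim5 ended (adjusted p from 0.054 to 0.0975), with 8.97% of all genes called. With the mean of all probe sets of a gene, the R140Q call of Nebl (adjusted p = 0.061) and the R172K call of Pdlim1 (adjusted p = 0.0507) ended. Without R140Q 4, control 3 and R172K 3 together, the R172K call of Myoz2 ended (adjusted p = 0.0761).

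**Figure D1:**
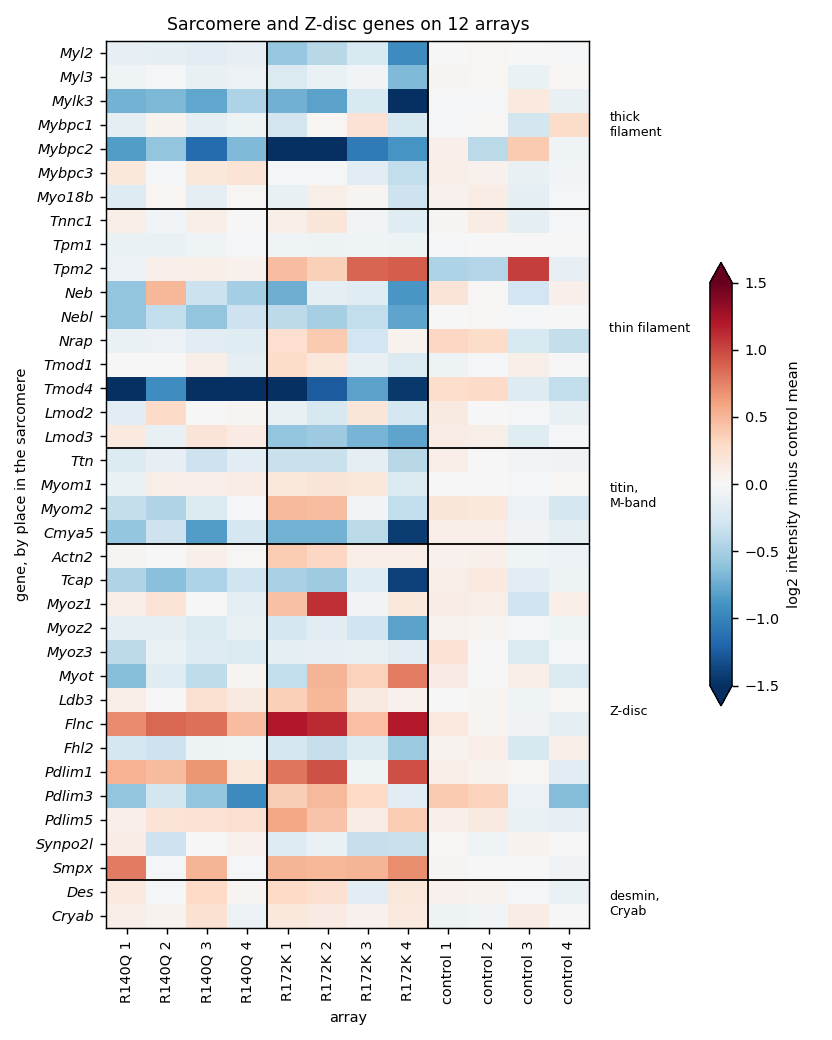
Log2 intensity of each of the 37 genes on each of the 12 arrays, minus the mean of the 4 control arrays, with genes in rows by place in the sarcomere and arrays in columns by group. Blue cells are lower and red cells higher than the control mean, and the colour scale ends at 1.5 in each direction. Mybpc2 and Tmod4 are blue on all 8 mutant arrays, Flnc is red in all 8, and R172K 4 is the lowest R172K array for 23 of 37 genes.

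**Figure D2:**
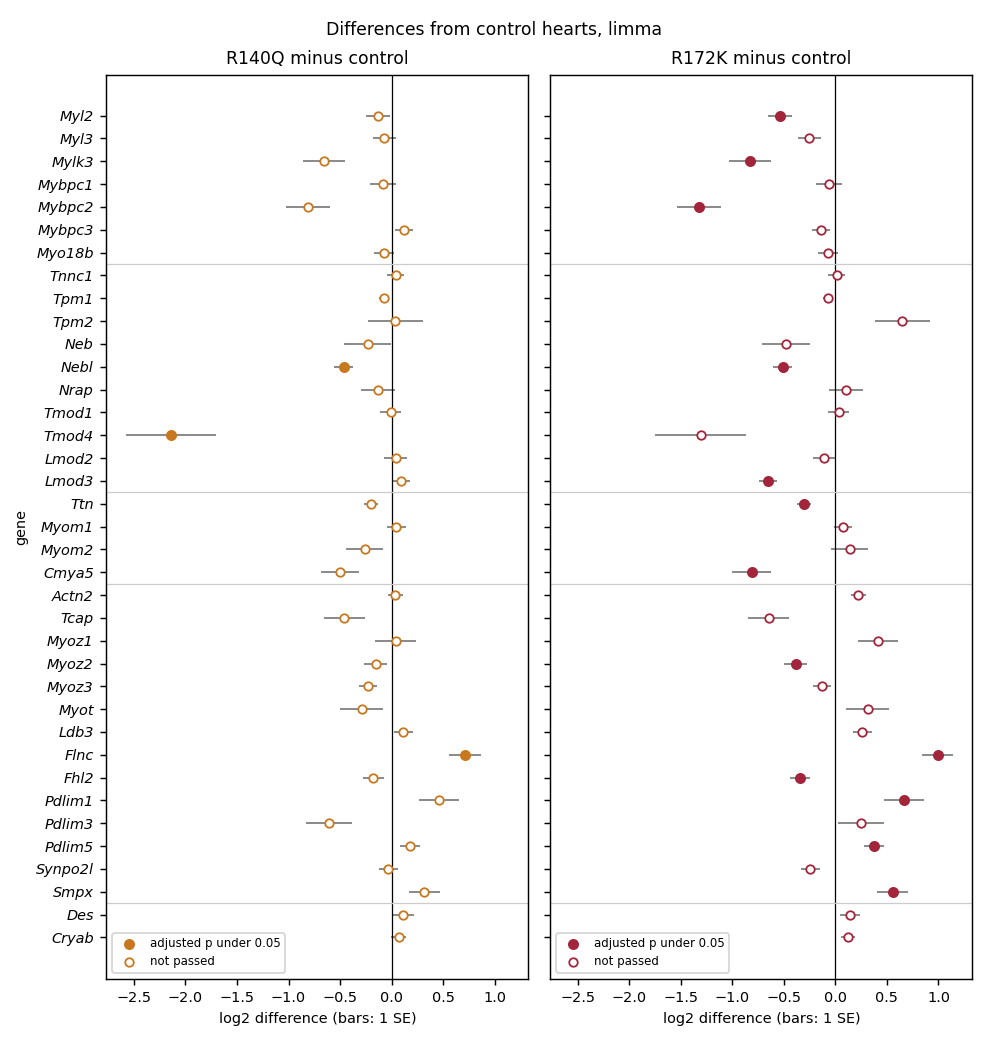
Log2 difference from control for each of the 37 genes in R140Q hearts (left) and R172K hearts (right), with bars of 1 standard error from the limma fit. Filled points passed at an adjusted p under 0.05, 3 on the left and 13 on the right, and open points did not.

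Promoters of changed genes are shown because factors that bind the MEF2 box, the CArG box and the MCAT element are known to act on muscle genes. The part of such factors in the changes was not tested. RefSeq windows on GRCm38.p6, from 250 bases before to 50 bases after a listed start, were searched for 28 of the 37 genes. The other 9 were not searched, whether or not RefSeq lists a start for them. Every count and share of members below is of the 28 searched. Of 8 lower genes in R172K hearts with a window, 3 held a MEF2 box (Fhl2, Myoz2 and Ttn), none of the 4 higher genes did, and 2 of the 16 that did not pass did (Mybpc3 and Synpo2l). A CArG box stood in 2 of the 8 lower, none of the 4 higher and 3 of the 16 others, and CATTCC in 4 of the 8 lower, 1 of the 4 higher (Flnc) and 5 of the 16 others. Over both strands, 5 of 28 members (17.9%) and 3.70% of 27025 genes had a MEF2 box, 5 members (17.9%) and 1.81% of genes had a CArG box, and 10 members (35.7%) and 16.6% of genes had the MCAT letters CATTCC. The letters TATAAA occurred in 3 members (10.7%) and 15.7% of genes. A MEF2 box can contain TATAAA, so these motifs can overlap. A gene counted if any of its listed windows held the motif, and some genes had more than 1 window. These were Myl2, Mylk3, Nebl and Fhl2 among the lower genes, Flnc and Pdlim5 among the higher, and Ldb3 and Synpo2l among the others. More sequence was searched for such genes, so the counts of the sets are not on an equal footing. These are matches of letters, and no difference between the sets was tested. The windows printed are those of the widest called falls in either mutant (Mybpc2 and Tmod4), of the MEF2-box genes Ttn and Myoz2 that fell, and of Smpx as a gene that rose, although it is Flnc among the genes that rose whose windows hold CATTCC. They are printed 5′ to 3′ on the gene's own strand from RefSeq, with the matched letters in capitals. Mybpc2 lies at chr7:44524620-44524919 (minus strand), Ttn at chr2:76982498-76982797 (minus), Myoz2 at chr3:123034938-123035237 (minus), Tmod4 at chr3:95124264-95124563 (plus) and Smpx at chrX:157698723-157699022 (plus).
Mybpc2: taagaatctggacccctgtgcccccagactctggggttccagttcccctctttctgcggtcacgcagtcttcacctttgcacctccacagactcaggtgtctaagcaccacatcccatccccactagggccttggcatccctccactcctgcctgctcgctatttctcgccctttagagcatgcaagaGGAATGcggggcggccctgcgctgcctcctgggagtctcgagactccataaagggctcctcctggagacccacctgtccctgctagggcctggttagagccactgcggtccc
Ttn: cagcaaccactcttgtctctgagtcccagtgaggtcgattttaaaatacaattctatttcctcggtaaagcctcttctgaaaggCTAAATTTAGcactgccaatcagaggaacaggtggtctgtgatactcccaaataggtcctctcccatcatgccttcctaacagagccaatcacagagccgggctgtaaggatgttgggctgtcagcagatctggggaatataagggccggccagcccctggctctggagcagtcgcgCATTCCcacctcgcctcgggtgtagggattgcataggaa
Myoz2: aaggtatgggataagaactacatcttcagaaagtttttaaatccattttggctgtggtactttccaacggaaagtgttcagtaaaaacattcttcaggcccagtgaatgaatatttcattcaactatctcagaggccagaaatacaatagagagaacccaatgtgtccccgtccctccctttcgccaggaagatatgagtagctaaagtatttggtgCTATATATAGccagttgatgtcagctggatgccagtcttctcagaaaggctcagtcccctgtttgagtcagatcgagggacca
Tmod4: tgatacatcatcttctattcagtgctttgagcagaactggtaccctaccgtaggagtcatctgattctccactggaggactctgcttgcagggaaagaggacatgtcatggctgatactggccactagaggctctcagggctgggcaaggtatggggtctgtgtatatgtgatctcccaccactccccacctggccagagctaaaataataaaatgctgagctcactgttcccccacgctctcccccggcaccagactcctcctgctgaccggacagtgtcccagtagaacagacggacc
Smpx: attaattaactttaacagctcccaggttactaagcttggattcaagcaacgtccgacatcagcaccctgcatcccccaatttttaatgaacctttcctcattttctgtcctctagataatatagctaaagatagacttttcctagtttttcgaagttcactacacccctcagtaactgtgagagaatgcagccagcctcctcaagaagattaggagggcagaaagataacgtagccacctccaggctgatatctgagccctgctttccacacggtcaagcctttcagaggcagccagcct
The capitals mark the MCAT letters, read on the other strand, 62 to 57 bases before the start in Mybpc2, a MEF2 box 166 to 157 bases before the start and CATTCC after it in Ttn, and a MEF2 box 33 to 24 bases before the start in Myoz2. The Tmod4 and Smpx windows hold none of these letters.

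Of the 7 thick filament genes, 3 fell in R172K hearts, none rose and 4 did not pass. None passed in R140Q hearts. Mybpc2 (probe set 10562784) is the fast skeletal form of myosin-binding protein C. Its log2 intensities were 7.24, 7.49, 6.93 and 7.43 in R140Q hearts and 6.25, 6.57, 7.02 and 7.20 in R172K hearts, against 8.16, 7.68, 8.48 and 8.02 in control hearts. All 8 mutant arrays lay below all control arrays, and R172K 1 was the lowest of them. Mybpc2 fell by 1.32 ± 0.21 in R172K hearts (2.5-fold, adjusted p = 0.00328), a call that held whichever array was left out. The R140Q difference of -0.81 ± 0.21 (SE, adjusted p = 0.0667) did not pass with all arrays, but passed without R172K 3 (adjusted p = 0.0489) or R172K 4 (0.0334). The R172K minus R140Q difference of -0.51 ± 0.21 (SE, adjusted p = 0.252) did not pass.

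The cardiac form, Mybpc3, and the slow skeletal form, Mybpc1, did not pass. Mybpc3 averaged 12.69 ± 0.10 in R140Q hearts, 12.42 ± 0.16 in R172K hearts and 12.56 ± 0.09 in control hearts (SD, n = 4 each), with differences of 0.12 ± 0.09 (SE, adjusted p = 0.538) for R140Q and -0.14 ± 0.09 (SE, adjusted p = 0.333) for R172K. Mybpc1 lay between 5.34 and 5.90 on all arrays, a low intensity that may be background because no detection calls are used. Its differences from control did not pass in either mutant (adjusted p = 0.826 for R140Q and 0.797 for R172K). Whether the change of Mybpc2 differs from that of Mybpc3 was not tested.

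Myl2, the ventricular regulatory light chain, and Mylk3, the cardiac kinase that phosphorylates it, both fell in R172K hearts. Myl2 (probe set 10525343) had log2 intensities of 13.22, 13.20, 13.18 and 13.21 in R140Q hearts and 12.76, 12.92, 13.11 and 12.39 in R172K hearts, against 13.34, 13.36, 13.33 and 13.31 in control hearts. The 3 groups did not overlap, with every control array above every R140Q array and every R140Q array above every R172K array. Myl2 fell by 0.54 ± 0.12 in R172K hearts (1.45-fold, adjusted p = 0.0109), whichever array was left out. In R140Q hearts its difference of -0.13 ± 0.12 (SE, adjusted p = 0.634) did not pass. R172K 4 was lowest at 12.39, and without it the R172K difference was -0.40. The direct R172K minus R140Q difference of -0.41 ± 0.12 (SE, adjusted p = 0.0964) passed without R172K 3 (adjusted p = 0.0108).

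Mylk3 (probe set 10580349) had log2 intensities of 9.85, 9.89, 9.78 and 10.10 in R140Q hearts and 9.83, 9.75, 10.33 and 9.01 in R172K hearts, against 10.55, 10.53, 10.71 and 10.45 in control hearts. All mutant arrays lay below all control arrays, and R172K ranged most widely, R172K 4 lowest and R172K 3 highest. Mylk3 fell by 0.83 ± 0.20 in R172K hearts (1.77-fold, adjusted p = 0.0199), a call that ended without control 3 (adjusted p = 0.0516). Its R140Q difference of -0.66 ± 0.20 (SE, adjusted p = 0.114) did not pass with all arrays, but passed without R172K 3 (adjusted p = 0.0349) or R172K 4 (0.015). The essential light chain Myl3 averaged 13.11 ± 0.04 in R140Q hearts, 12.92 ± 0.28 in R172K hearts and 13.18 ± 0.06 in control hearts, and neither difference passed (adjusted p = 0.825 for R140Q and 0.16 for R172K).

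Myo18b, an unconventional myosin needed for sarcomere assembly, was read by 20 probe sets. None passed in either mutant. All 20 had a negative difference in R172K hearts, from -0.387 to -0.0731, and 19 of 20 in R140Q hearts, from -0.289 to 0.0602. The probe sets read 1 gene in the same arrays and are not independent. The brightest averaged 11.47 ± 0.11 in R140Q hearts, 11.48 ± 0.18 in R172K hearts and 11.55 ± 0.11 in control hearts.

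Of the 10 thin filament genes, 2 fell in R172K hearts and 2 in R140Q hearts, and none rose. Tmod4 (probe set 10494160), a tropomodulin of skeletal muscle that caps the free end of thin filaments, had the widest R140Q spread. Its log2 intensities were 5.87, 8.63, 7.38 and 7.81 in R140Q hearts and 7.83, 8.31, 8.76 and 8.12 in R172K hearts, against 9.83, 9.86, 9.38 and 9.20 in control hearts. Every mutant array lay below every control array, and R140Q 1 was lowest by more than 1 log2 unit. Tmod4 fell by 2.14 ± 0.44 in R140Q hearts (4.41-fold, adjusted p = 0.0296), a call that ended without R140Q 3 or control 1, 2 or 3 (adjusted p from 0.0631 to 0.0951), and without R140Q 4, control 3 and R172K 3 together (0.0684). The R172K difference of -1.31 ± 0.44 (SE, adjusted p = 0.0687) did not pass with all arrays. It did without R140Q 1 (adjusted p = 0.0119), R140Q 2 (0.0329) or R172K 3 (0.0464). The R172K minus R140Q difference of 0.83 ± 0.44 (SE, adjusted p = 0.387) did not pass.

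Tmod1, the tropomodulin of heart muscle, did not pass in either mutant. It averaged 11.70 ± 0.10 in R140Q hearts, 11.74 ± 0.23 in R172K hearts and 11.71 ± 0.07 in control hearts, and its adjusted p was 0.978 for R140Q and 0.896 for R172K. Skeletal muscle markers were read beside Mybpc2 and Tmod4, since both genes are known from skeletal muscle. Of 12 such markers, 1 fell in R172K hearts, where 6.78% of all genes were lower. It was the calsequestrin Casq1 (log2 6.26 to 6.94 in R172K hearts, against 8.31 to 10.17 in control hearts). None passed in R140Q hearts, but Casq1 differed there by -2.03 ± 0.52 (SE, adjusted p = 0.06), with log2 6.27 to 8.57, a difference about as large as that of Tmod4. Their summed intensity was 871 to 1520 in R140Q hearts and 848 to 1197 in R172K hearts, against 1356 to 2570 in control hearts. The fast skeletal myosins Myh1, Myh2 and Myh4 and the light chain Mylpf lay between 4.55 and 5.92 on all arrays. Another light chain of the list, Myl1, lay higher, between 7.37 and 9.70. Its differences of -0.78 ± 0.41 (SE, adjusted p = 0.366) for R140Q and -0.90 ± 0.41 (SE, adjusted p = 0.176) for R172K did not pass. Of the 12 markers, 9 had a negative and 3 a positive difference in R140Q hearts, and 8 a negative and 4 a positive one in R172K hearts. The part of these markers in the Mybpc2 and Tmod4 results was not tested.

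**Figure D3:**
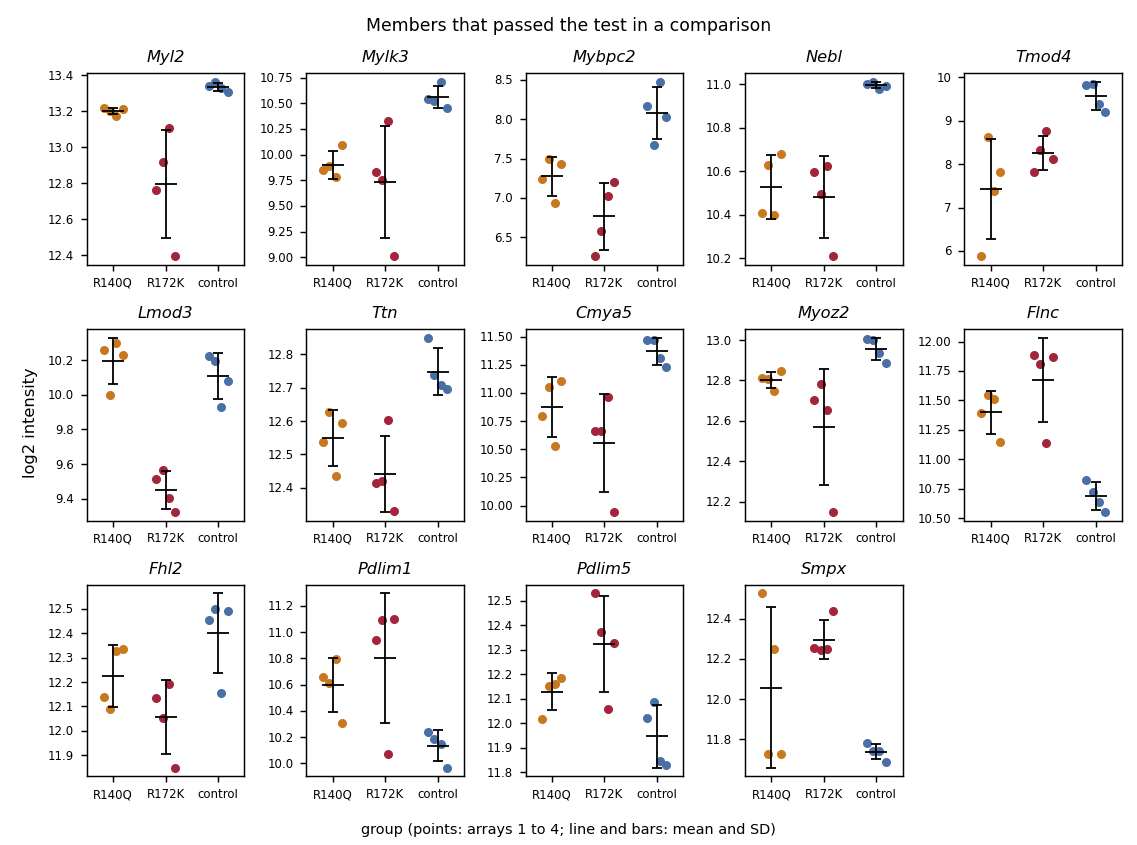
Log2 intensity of the 14 genes that passed in at least 1 comparison, by group, with a point per array (replicates 1 to 4 from left to right) and the mean and SD of 4 arrays in black. Each panel has its own axis. Lmod3 is lower on the 4 R172K arrays than in the other 8, and Nebl and Tmod4 are lower on all 8 mutant arrays than on control arrays.

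The leiomodins extend thin filaments at the end that tropomodulin caps. In the fit of all 12 arrays Lmod3 (probe set 10546624) was the only 1 of the 37 genes with a called difference between the mutants. Its log2 intensities were 10.26, 10.00, 10.30 and 10.23 in R140Q hearts and 9.51, 9.57, 9.41 and 9.32 in R172K hearts, against 10.22, 10.20, 9.93 and 10.08 in control hearts. The R172K arrays lay below all 8 others, whereas R140Q and control arrays overlapped. Lmod3 fell by 0.66 ± 0.09 in R172K hearts against control (1.57-fold, adjusted p = 0.00177), whichever array was left out. In R140Q hearts the difference from control was 0.09 ± 0.09 (SE, adjusted p = 0.689). The direct R172K minus R140Q difference was -0.75 ± 0.09 (adjusted p = 0.0112). It ended without R140Q 4 or R172K 1 (adjusted p from 0.053 to 0.0544). Lmod2, the leiomodin best known from heart muscle, averaged 11.68 ± 0.18 in R140Q hearts, 11.53 ± 0.21 in R172K hearts and 11.64 ± 0.10 in control hearts and did not pass (adjusted p = 0.909 for R140Q and 0.599 for R172K).

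Nebl (probe set 10480288), which encodes the cardiac nebulin relative nebulette, fell in both mutants. Its log2 intensities were 10.41, 10.63, 10.40 and 10.68 in R140Q hearts and 10.60, 10.50, 10.62 and 10.21 in R172K hearts, against 11.00, 11.01, 10.98 and 10.99 in control hearts. The 4 control arrays lay within 0.03 of each other, and all mutant arrays lay below them. Nebl fell by 0.47 ± 0.10 in R140Q hearts (1.38-fold, adjusted p = 0.0296) and by 0.51 ± 0.10 in R172K hearts (1.43-fold, adjusted p = 0.00608). The R172K call held whichever array was left out. The R140Q call ended without R140Q 1 or 3 or control 1, 2, 3 or 4 (adjusted p from 0.0593 to 0.0964). A second, dimmer Nebl probe set differed by -0.33 in R140Q hearts and -0.46 in R172K hearts, and passed only in R172K (adjusted p = 0.0187 over the probe sets).

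Nebulin itself (Neb), a long thin filament ruler of skeletal muscle, varied most in R140Q hearts. It averaged 7.15 ± 0.50 in R140Q hearts, 6.90 ± 0.37 in R172K hearts and 7.39 ± 0.20 in control hearts, and neither difference passed (adjusted p = 0.69 for R140Q and 0.208 for R172K). Nrap, a nebulin relative of assembling myofibrils, averaged 11.62 ± 0.05 in R140Q hearts, 11.85 ± 0.30 in R172K hearts and 11.75 ± 0.34 in control hearts. Its R172K difference of 0.11 turned to -0.0137 without control 4. Cardiac troponin C (Tnnc1) averaged 12.87 ± 0.07 in R140Q hearts, 12.84 ± 0.16 in R172K hearts and 12.83 ± 0.11 in control hearts, and no difference passed.

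The tropomyosins wind along actin and gate myosin binding. Tpm1, the main cardiac form, had log2 intensities of 13.04, 13.03, 13.07 and 13.10 in R140Q hearts and 13.07, 13.06, 13.06 and 13.06 in R172K hearts, against 13.12, 13.14, 13.13 and 13.13 in control hearts. All mutant arrays lay just below all control arrays, with differences of -0.07 ± 0.05 (SE, adjusted p = 0.494) for R140Q and -0.07 ± 0.05 (SE, adjusted p = 0.404) for R172K that did not pass. Tpm2, the beta form of slow skeletal and smooth muscle, had log2 intensities of 7.08, 7.24, 7.26 and 7.23 in R140Q hearts and 7.63, 7.53, 8.04 and 8.08 in R172K hearts, against 6.70, 6.73, 8.20 and 7.04 in control hearts. Control 3, the array highest in atrial markers, was also the highest of all 12 for Tpm2. The R172K difference of 0.65 ± 0.27 (SE, adjusted p = 0.138) did not pass with that array. Without control 3 it was 0.99 (adjusted p = 0.00506), and without R140Q 4, control 3 and R172K 3 together it was 0.92 (adjusted p = 0.00355). In that last fit the R172K arrays kept still had higher atrial sums (11841 to 15606) than the control arrays kept (6940 to 7730). The part of atrial tissue in the Tpm2 result was not tested. Summed atrial marker intensity was 2303 to 11058 in R140Q hearts, 11841 to 22429 in R172K hearts and 6940 to 31247 in control hearts. Of the 10 markers, 1 (Kcnj3) was lower in R172K hearts, against 6.78% of all genes, and none passed in R140Q hearts. Nppa weighs most in the sum, with log2 7.85 to 13.20 in R140Q hearts. Myl7 was 5.23 to 6.04 in R140Q hearts, 7.43 to 11.36 in R172K hearts and 6.18 to 12.49 in control hearts, without passing. Of the 10 atrial markers, 9 had a negative and 1 a positive R140Q difference from control. Of 9 smooth muscle and pericyte markers, 2 rose in R172K hearts (Pdgfrb and Rgs5), against 6.23% of all genes, and none passed in R140Q hearts. Their summed intensity was 9093 to 9547 in R140Q hearts and 8511 to 10262 in R172K hearts, against 7720 to 9006 in control hearts.

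Titin (Ttn, probe set 10483871), the giant elastic protein that runs from Z-disc to M-band, had log2 intensities of 12.54, 12.63, 12.44 and 12.59 in R140Q hearts and 12.41, 12.42, 12.60 and 12.33 in R172K hearts, against 12.85, 12.74, 12.71 and 12.69 in control hearts. All mutant arrays lay below all control arrays. Ttn fell by 0.31 ± 0.07 in R172K hearts (1.24-fold, adjusted p = 0.0161), and the call ended without R172K 1 or control 1 (adjusted p from 0.051 to 0.0515). The R140Q difference of -0.20 ± 0.07 (SE, adjusted p = 0.169) did not pass. A single value per gene cannot separate titin isoforms.

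Cmya5 (probe set 10411107) encodes myospryn, a large protein that binds titin and other sarcomere proteins. Its log2 intensities were 10.79, 11.06, 10.53 and 11.11 in R140Q hearts and 10.66, 10.66, 10.97 and 9.94 in R172K hearts, against 11.47, 11.47, 11.31 and 11.23 in control hearts. Every mutant array lay below every control array, and R172K 4 was the lowest. Cmya5 fell by 0.81 ± 0.19 in R172K hearts (1.76-fold, adjusted p = 0.0151), whichever array was left out. The R140Q difference of -0.50 ± 0.19 (SE, adjusted p = 0.188) passed without R172K 4 (adjusted p = 0.0427) and not otherwise among the arrays left out in turn. The M-band cross-linkers did not pass. Myom1 averaged 11.61 ± 0.10 in R140Q hearts, 11.63 ± 0.19 in R172K hearts and 11.56 ± 0.02 in control hearts, and Myom2 averaged 11.88 ± 0.18 in R140Q hearts, 12.28 ± 0.42 in R172K hearts and 12.14 ± 0.21 in control hearts.

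The 14 Z-disc genes moved both ways. In R172K hearts 4 rose, 2 fell and 8 did not pass, and in R140Q hearts 1 rose and 13 did not pass. Their median difference was 0.25 in R172K hearts and 0.0016 in R140Q hearts, against -0.0033 and 0.003 for all genes. Filamin C (Flnc, probe set 10536845), an actin cross-linker of the Z-disc and cell membrane that is turned over under mechanical load, was the 1 member that rose in both mutants. Its log2 intensities were 11.39, 11.54, 11.51 and 11.14 in R140Q hearts and 11.88, 11.81, 11.14 and 11.87 in R172K hearts, against 10.83, 10.72, 10.64 and 10.55 in control hearts. Every mutant array lay above every control array, and R172K 3 and R140Q 4 were the lowest of the mutants. Flnc rose 1.64-fold in R140Q hearts, by 0.71 ± 0.15 in log2 (adjusted p = 0.0341), a call that ended without R140Q 1, 2 or 3 or control 1, 2, 3 or 4 (adjusted p from 0.0638 to 0.106). It rose 1.99-fold in R172K hearts, by 0.99 ± 0.15 (adjusted p = 0.00286), whichever array was left out. The R172K minus R140Q difference of 0.28 ± 0.15 (SE, adjusted p = 0.409) did not pass, but passed without R172K 3 (0.46, adjusted p = 0.0169) and without R140Q 4, control 3 and R172K 3 together (0.37, adjusted p = 0.0442).

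The PDZ-LIM proteins link alpha-actinin to kinases and other partners. Pdlim1 (probe set 10467420) had log2 intensities of 10.66, 10.61, 10.80 and 10.31 in R140Q hearts and 10.94, 11.09, 10.07 and 11.10 in R172K hearts, against 10.24, 10.18, 10.15 and 9.97 in control hearts. Of the R172K arrays, 3 lay above all control arrays, and R172K 3 lay within the control range. Pdlim1 rose by 0.67 ± 0.20 in R172K hearts (1.59-fold, adjusted p = 0.041), a call that ended without R140Q 1 or 2, R172K 1, 2 or 4 or control 1, 2, 3 or 4 (adjusted p from 0.0523 to 0.11). The R140Q difference of 0.46 ± 0.20 (SE, adjusted p = 0.247) did not pass with all arrays, but passed without R172K 3 (adjusted p = 0.0273). Without R172K 3 the R172K minus R140Q difference, 0.21 with all arrays, was 0.45 and passed (adjusted p = 0.0275). The second Pdlim1 probe set differed by 0.53 in R172K hearts (adjusted p = 0.0672 over the probe sets) and by 0.33 in R140Q hearts.

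Pdlim5 (probe set 10502469) had log2 intensities of 12.02, 12.15, 12.16 and 12.19 in R140Q hearts and 12.53, 12.37, 12.06 and 12.33 in R172K hearts, against 12.02, 12.09, 11.85 and 11.83 in control hearts. Here too R172K 3 fell within the control range. Pdlim5 rose by 0.38 ± 0.10 in R172K hearts (1.3-fold, adjusted p = 0.0237), and the call ended without R172K 1 or 2 or control 3 or 4 (adjusted p from 0.0618 to 0.0761). Pdlim3 had log2 intensities of 9.26, 9.58, 9.26 and 8.89 in R140Q hearts and 10.22, 10.34, 10.15 and 9.69 in R172K hearts, against 10.24, 10.20, 9.77 and 9.20 in control hearts. It was lower on every R140Q array than on any R172K array, while control arrays overlapped both. Its R172K minus R140Q difference of 0.85 ± 0.22 (SE, adjusted p = 0.0777) did not pass, although it did with array weights (adjusted p = 0.0173), nor did its differences from control of -0.61 ± 0.22 (SE, adjusted p = 0.178) for R140Q and 0.25 ± 0.22 (SE, adjusted p = 0.54) for R172K.

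Smpx (probe set 10602756), a small muscle protein of the X chromosome that is known to respond to stretch, split the R140Q arrays. Its log2 intensities were 12.53, 11.73, 12.25 and 11.73 in R140Q hearts and 12.25, 12.24, 12.25 and 12.44 in R172K hearts, against 11.78, 11.74, 11.75 and 11.69 in control hearts. R140Q 1 and 3 lay above every control array and R140Q 2 and 4 lay within the control range. Smpx rose by 0.56 ± 0.15 in R172K hearts (1.47-fold, adjusted p = 0.0294), a call that ended without R172K 1, 2 or 4 or control 1, 2, 3 or 4 (adjusted p from 0.0572 to 0.0689). The R140Q difference of 0.32 ± 0.15 (SE, adjusted p = 0.305) did not pass.

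Myoz2 (calsarcin-1, probe set 10501895), the cardiac member of a family that tethers calcineurin to the Z-disc, had log2 intensities of 12.81, 12.81, 12.75 and 12.85 in R140Q hearts and 12.70, 12.78, 12.65 and 12.15 in R172K hearts, against 13.01, 13.00, 12.93 and 12.89 in control hearts. All mutant arrays lay below all control arrays, R172K 4 lowest. Myoz2 fell by 0.38 ± 0.11 in R172K hearts (1.3-fold, adjusted p = 0.041), a call that ended without R140Q 1, 2, 3 or 4, R172K 1 or control 1, 2, 3 or 4 (adjusted p from 0.0526 to 0.0998). Its R140Q difference was -0.15 ± 0.11 (SE, adjusted p = 0.553). The skeletal muscle relatives did not pass in either mutant. Myoz1 averaged 5.55 ± 0.14 in R140Q hearts, 5.92 ± 0.49 in R172K hearts and 5.51 ± 0.20 in control hearts, near the low end of the array, with 6.60 on R172K 2, and Myoz3 averaged 6.64 ± 0.12 in R140Q hearts, 6.73 ± 0.02 in R172K hearts and 6.86 ± 0.18 in control hearts.

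**Figure D4:**
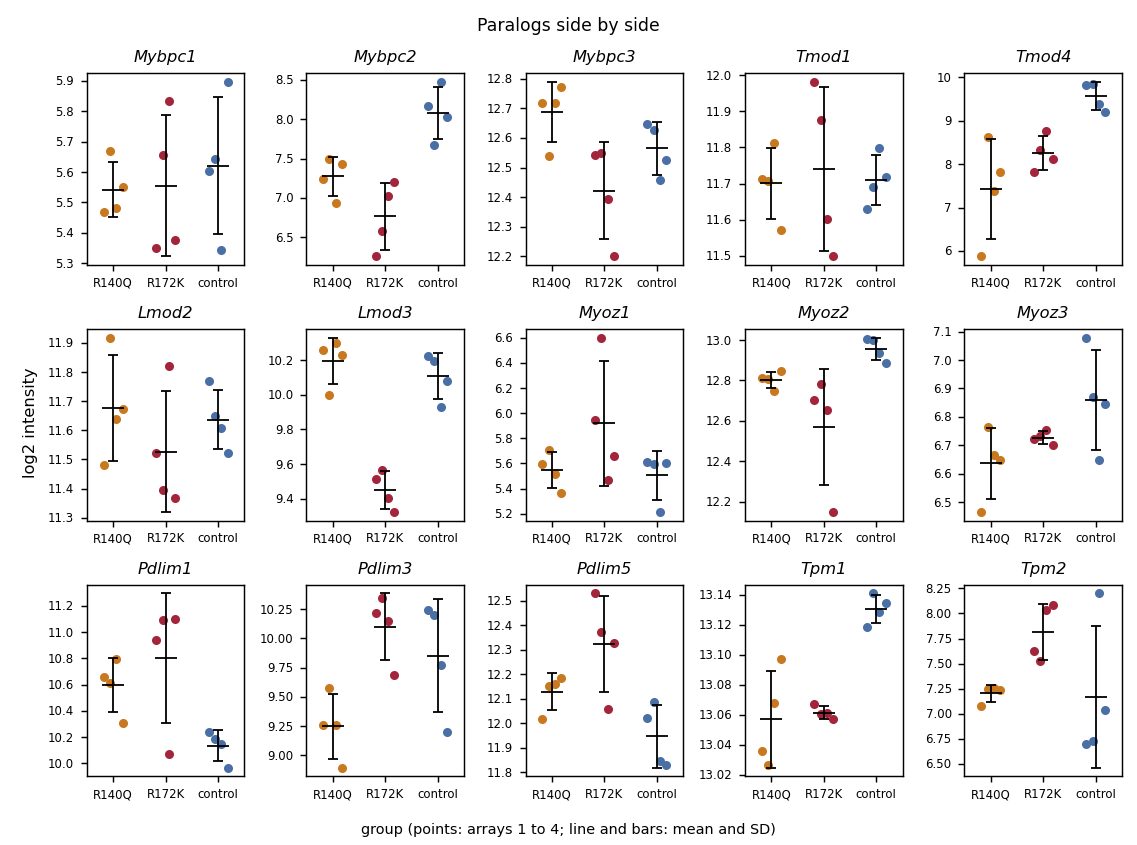
Log2 intensity of 15 members from 6 paralog families, by group, with a point per array and the mean and SD of 4 arrays in black, each panel on its own axis. With all 12 arrays, Mybpc2, Tmod4, Lmod3, Myoz2, Pdlim1 and Pdlim5 passed in at least 1 comparison. Mybpc1, Mybpc3, Tmod1, Lmod2, Myoz1, Myoz3, Pdlim3, Tpm1 and Tpm2 did not pass in any.

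Fhl2 (probe set 10354247), a LIM protein that binds titin and metabolic enzymes, had log2 intensities of 12.14, 12.09, 12.33 and 12.34 in R140Q hearts and 12.14, 12.05, 12.19 and 11.85 in R172K hearts, against 12.45, 12.50, 12.16 and 12.49 in control hearts. Control 3 lay below the other control arrays and within the mutant range. Fhl2 fell by 0.34 ± 0.10 in R172K hearts (1.27-fold, adjusted p = 0.0408), and the call ended without R140Q 1, R172K 1, 2 or 4 or control 1, 2 or 4 (adjusted p from 0.0515 to 0.113). In R140Q hearts the difference was -0.18 ± 0.10 (SE, adjusted p = 0.415). Tcap (telethonin), which caps titin at the Z-disc, had log2 intensities of 11.06, 10.88, 11.05 and 11.21 in R140Q hearts and 11.02, 10.98, 11.33 and 10.11 in R172K hearts, against 11.61, 11.65, 11.34 and 11.43 in control hearts. Every mutant array lay below every control array, yet neither the R140Q difference of -0.46 ± 0.20 (SE, adjusted p = 0.263) nor the R172K difference of -0.65 ± 0.20 (SE, adjusted p = 0.051) passed. The R172K difference passed without R172K 3 (adjusted p = 0.0103) or R172K 4 (-0.40, adjusted p = 0.0413), and the R140Q difference without R172K 4 (adjusted p = 0.0284).

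Alpha-actinin 2 (Actn2), the main Z-disc cross-linker, and its partner Ldb3 were higher on every R172K array than on any control array without passing. Actn2 had log2 intensities of 12.95, 12.92, 12.99 and 12.93 in R140Q hearts and 13.29, 13.22, 13.01 and 13.01 in R172K hearts, against 12.98, 12.99, 12.85 and 12.82 in control hearts, with an R172K difference of 0.22 ± 0.07 (SE, adjusted p = 0.0689). Without R172K 3 or R172K 4 it passed (adjusted p = 0.0302 and 0.0481). Ldb3 averaged 11.55 ± 0.10 in R140Q hearts, 11.70 ± 0.20 in R172K hearts and 11.44 ± 0.05 in control hearts, with an R172K difference of 0.26 ± 0.09 (SE, adjusted p = 0.0766), and it passed without R172K 3 (adjusted p = 0.0409) or R172K 4 (0.0332). Synpo2l, an actin-associated Z-disc protein, averaged 10.05 ± 0.19 in R140Q hearts, 9.84 ± 0.12 in R172K hearts and 10.08 ± 0.05 in control hearts, and its R172K difference of -0.25 ± 0.09 (SE, adjusted p = 0.102) passed only without R140Q 2 (adjusted p = 0.0384) among the arrays left out. Myot (myotilin) averaged 9.77 ± 0.29 in R140Q hearts, 10.37 ± 0.48 in R172K hearts and 10.06 ± 0.15 in control hearts, and neither of its differences from control passed.

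Desmin (Des), the intermediate filament that links Z-discs, and its chaperone alpha-B crystallin (Cryab) did not pass in either mutant. Des averaged 12.62 ± 0.14 in R140Q hearts, 12.65 ± 0.20 in R172K hearts and 12.51 ± 0.07 in control hearts, and Cryab averaged 12.26 ± 0.13 in R140Q hearts, 12.31 ± 0.04 in R172K hearts and 12.19 ± 0.08 in control hearts (SD, n = 4 each). The groups overlapped for both genes.

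The arrays of 1 group did not vary alike. R172K was the group with the widest range for 25 of 37 genes, R140Q for 7 and control for 5. R172K 4 was the lowest R172K array for 23 genes, and R172K 3 the lowest for 8 and the highest for 12. R172K 4 lay below the control range for 22 genes and above it for 10, whereas R172K 3 lay within the control range for 15. Across R140Q arrays, between 13 and 18 genes lay below the control range and between 7 and 12 above it. Non-overlap with control held for 12 lower and 4 higher members in R172K hearts, against 8.72% and 7.47% of all genes, and for 10 lower and 2 higher members in R140Q hearts, against 7.04% and 7.79%. In either direction, 16.2% of all genes did not overlap for R172K and 14.8% for R140Q. Between R172K and R140Q hearts 3 members lay apart higher (Tpm2, Actn2 and Pdlim3) and 2 lower (Myl2 and Lmod3), against 3.07% and 4.64% of all genes, 7.72% in all.

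Markers of other cell types also differed between the groups. Beside the counts below, 6.78% of all genes were lower and 6.23% higher in R172K hearts, and 1.12% lower and 1.08% higher in R140Q hearts. Of 14 cardiomyocyte markers, 6 fell in R172K hearts (Tnni3, Ryr2, Pln, Atp2a2, Mb and Cox6a2) and none passed in R140Q hearts. In R172K hearts 12 of the 14 markers had a negative difference and 2 (Gata4 and Slc8a1) a positive one. Their summed intensity was 95363 to 99954 in R140Q hearts and 83043 to 95793 in R172K hearts, against 103273 to 106829 in control hearts, and R172K 4 was lowest. Of 8 fibroblast markers, 5 rose in R172K hearts (Pdgfra, Col1a1, Col1a2, Col3a1 and Postn) and none passed in R140Q hearts. Their sum was 9162 to 14665 in R140Q hearts and 10818 to 22150 in R172K hearts, against 8574 to 11126 in control hearts. R172K 4 was highest and R172K 3 lowest of the R172K arrays. Macrophage markers, none of 8 passing in either mutant, summed to 2061 to 2494 in R140Q hearts and 1891 to 4716 in R172K hearts, against 1826 to 2580 in control hearts. Of 7 endothelial markers, 2 rose in R140Q hearts (Cdh5 and Kdr) and 1 in R172K hearts (Kdr), with sums of 8487 to 9139 in R140Q hearts and 7611 to 8679 in R172K hearts, against 6895 to 7308 in control hearts. The part of cell makeup in the results of the sarcomere genes was not tested.

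Of 38 further sarcomere and Z-disc genes measured, 9 rose and 9 fell in R172K hearts, against 6.23% and 6.78% of all genes. In R140Q hearts 3 rose (Acta1, Pdlim7 and Xirp2) and 1 fell (Palld), against 1.08% and 1.12%. Between R172K and R140Q hearts 1 was higher, the atrial light chain Myl4, against 0.487%. The 38 genes were not counted in the fit of brighter genes, where 27.8% were called for R172K and 5.69% for R140Q. Of the 38, 4 are also among the 14 cardiomyocyte markers and 2 among the 10 atrial markers. The median difference of the 38 was 0.05 in R172K and 0.02 in R140Q hearts, against -0.0033 and 0.003 for all genes. Skeletal actin (Acta1), part of the fetal heart program, was higher by 1.48 ± 0.16 in R140Q hearts (adjusted p = 0.00281) and by 1.49 ± 0.16 in R172K hearts (adjusted p = 0.000678). Palladin (Palld), an actin-bundling partner of alpha-actinin, fell by 0.44 in R140Q hearts (adjusted p = 0.00561) and by 0.42 in R172K hearts (adjusted p = 0.00291). Obscurin-like 1 (Obsl1), which binds titin at the M-band, fell by 0.54 in R172K hearts (adjusted p = 0.00245). Talin 2 (Tln2), which ties integrins to actin, fell by 0.61 (adjusted p = 0.00365). Neither passed in R140Q hearts (adjusted p = 0.0758 for Obsl1 and 0.121 for Tln2).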

How the data were processed

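Heart RNA was read on Affymetrix Mouse Gene 1.0 ST arrays, 4 for each of R140Q, R172K and control. The authors' deposited values are linear intensity per probe set, made with RMA per the submitters' processing notes. The sources used here name neither the RMA version nor its probe annotation. RMA's quantile step makes arrays alike in distribution, so a shift of all transcripts together cannot be seen, and the number of arrays limits the precision.

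From the deposited intensity, log2 was taken with no pseudocount. The platform annotation gave 1 symbol to 21640 of 34760 probe sets, several to 1321 and none listed here for 11799. The probe set with the highest mean was kept per gene. limma 3.58.1 in R 4.3.3 fitted 3 group means on 12 arrays, tested on simulated data first, with Benjamini-Hochberg adjustment over 19937 genes. No detection filter was applied, and no scan batch is given in the sources used here.

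The members and all gene lists were chosen with earlier results of these data known. Values are given for every array for members past the threshold and several close to it, and by group or range for the others and for paralogs of changed members; up to 4 further sarcomere genes are named by smallest p. Alternatives covered the arrays used, replicate block, probe sets, dim genes, normalization, variance model, array weights, pseudocount and thresholds. Promoter windows came from RefSeq (GRCm38.p6).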

Additional observations from a re-analysis of the deposited data

Results flagged for a closer look

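In 9 of 111 groups of 4 arrays (37 genes in 3 groups), 1 array lay apart from the other 3, with a gap that took up more of the group's range than Dixon's critical value. Chance alone does so in about 1 in 20 groups. Control 3 lay apart in this way, as the lowest control array, for 3 genes. Myl3 was 13.081 there, against 13.2017 to 13.217 on the other control arrays. Myoz1 was 5.2138, against 5.5954 to 5.6141, and Fhl2 was 12.1556, against 12.4543 to 12.5003. R172K 3 was lowest for Flnc, at 11.1407 against 11.8091 to 11.8829 on the other R172K arrays, and for Pdlim1, at 10.0721 against 10.943 to 11.1043. R172K 4 was lowest for Myom1, at 11.3442 against 11.7216 to 11.7476, and highest for Smpx, at 12.4392 against 12.2422 to 12.2527. R140Q 1 was lowest for Tpm2, at 7.0806 against 7.2348 to 7.258, and for Myom1, at 11.456 against 11.6393 to 11.6707. All are log2 intensities.

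The mutants differed in Lmod3, with an R172K minus R140Q difference of -0.7451 in limma (adjusted p = 0.0112), lower on all 4 R172K arrays than on any R140Q array. The call ended without R140Q 4 or R172K 1 (adjusted p = 0.0544 and 0.053).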

How the results depend on the processing

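Of 17 called differences of members, none changed sign under 374 alternatives, and 302 of these kept the call while 72 lost it. Many of these alternatives leave the log2 difference itself as it was, so its sign could not change in them. Examples are the fit on 8 arrays, the replicate block, the fit without dim genes, the other variance model, and leaving out an array of the third group. With all arrays, 1 member was higher and 2 lower in R140Q hearts, 4 higher and 9 lower in R172K hearts, and 0 higher and 1 lower in R172K against R140Q hearts. Every share of all genes in this section is of calls in either direction, while each count of members is of 1 direction. On only the 8 arrays of the groups compared, these were 2 higher and 6 lower for R140Q and 2 higher for R172K (6.73% and 8.97% of all genes called, against 2.20% and 13.0% on 12 arrays). With array weights they were 6 lower for R140Q, 7 higher for R172K, and 3 higher and 3 lower for R172K against R140Q, while 8.28%, 22.5% and 8.9% of all genes were called for R140Q, R172K and R172K against R140Q. At an adjusted p under 0.01 they were 0 higher and 0 lower for R140Q, 1 higher and 3 lower for R172K, and 0 lower between the mutants. The share of all genes called fell too, to 0.366%, 3.88% and 0.00502%. The mean of all probe sets left 1 lower for R140Q (2.18% of all genes called), and so did a least difference of 0.5 (1.24%). Without R140Q 4, control 3 and R172K 3 the counts were 2 higher and 1 lower for R140Q, and 1 higher and 2 lower between the mutants (1.78% and 4.04% of all genes).

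Leaving out 1 array at a time gave 0 to 2 higher and 0 to 6 lower for R140Q, 1 to 6 higher and 6 to 11 lower for R172K, and 0 to 2 higher and 0 to 2 lower between the mutants. The share of all genes called moved too, over 0.502% to 5.09%, 6.66% to 20.9% and 0.00502% to 7.91%. Replicate numbers are shared, but nothing used here says that they pair the arrays, and the main fit treated the arrays as unpaired. Deviations of same-numbered arrays correlated between -0.336 and 0.152. That cannot settle the question, because arrays with different numbers were not compared. With a replicate block the R140Q count of higher members was 0 and the R172K minus R140Q count of higher members was 1 (Pdlim3, adjusted p = 0.0316), with 0.983% and 0.0552% of all genes called. The block ended the R140Q calls of Nebl (adjusted p = 0.0779) and Flnc (0.0582) and the R172K calls of Myoz2 (0.0508), Fhl2 (0.0906) and Pdlim1 (0.0665). Pdlim3 passed with it in R140Q hearts (-0.61, adjusted p = 0.0332), so the R140Q count of lower members was 2 (Tmod4 and Pdlim3).

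Among uncalled differences of at least 0.1, 3 changed sign, none of them called. With 1 array left out, the R172K minus control difference of Nrap ranged from -0.0137 (without control 4) to 0.2354. The R172K minus R140Q difference ranged from -0.3728 to 0.0683 for Mylk3 and from -0.3481 to 0.0604 for Tcap, both positive without R172K 4. The cause was not tested. The remaining 65 of 68 reversals were of differences under 0.1. Dim genes such as Mybpc1 and Myoz1 lie near the low end of the arrays, where small changes may not be read.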
